A study of Mus musculus with 31 samples.

Results

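The strain difference in the nucleus accumbens (NAc) of mice that had been repeatedly cross-fostered as pups was measured on 8 one-colour Agilent arrays, 4 from DBA2/J (DBA) and 4 from C57BL/6J (C57) females, of the 31 arrays of the series. The 8 were chosen by their sample titles and the values come from the deposited log2 table. All 8 mice were 12 weeks old, carried no transgene and had been moved as whole litters to another dam each day from postnatal day 1 to day 4, then weaned on day 28 (RCF). Of the groups used for comparison, the control NAc groups came from litters that were only lifted and returned to their own mother (4 arrays per strain), and the cross-fostered medial prefrontal cortex (mPFC) groups had 4 arrays per strain. Arrays that differed by no more than about the spread between repeated spots were averaged and counted as 1 sample, which left 2 C57 control NAc samples and 3 DBA mPFC samples; none of the 8 was averaged. At most 2 mice came from 1 cage or litter, RNA with an integrity number under 8.0 was discarded, and the samples are taken as separate mice, which the labels do not state for each array; p-values measure the spread between these samples, which may be technical. Values are log2 signals, differences are DBA minus C57, and a feature (a gene, represented by its brightest probe, or a probe without a gene symbol) passed the test at an adjusted p under 0.05 in limma with Benjamini-Hochberg adjustment.

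The NAc is the ventral part of the striatum. Most of its neurons are GABAergic projection neurons that carry D1 or D2 dopamine receptors and receive dopamine from the midbrain and glutamate from cortex, hippocampus and amygdala. C57 and DBA are inbred strains long compared for their responses to drugs of abuse and to stress. Each inbred strain is nearly homozygous, so a difference between them can include any gene at which they carry different alleles. A DNA difference under an array probe can also alter its signal.

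The arrays carried several limits that touch the results. All C57 NAc arrays lay on 1 slide and all DBA NAc arrays on another. The C57 mPFC arrays lay on 1 further slide and the DBA mPFC arrays on another. Slide and strain therefore cannot be told apart in either region, in the control mice as well as after RCF. For 29 of 31 samples the scanner file listed for the sample held the values of another sample's column, and arrays were tied to samples by the column they equal. The other arrays were set against the 30 genes with the largest differences named below. Since the 8 RCF arrays chose these genes, this checks nothing about the 8. The array labelled DBA NAc control 4 lay nearer the C57 mean for 28 of 30, as did the array labelled DBA mPFC control 1, so both went against their strain labels. Each of the other DBA arrays outside the 8 did so for at most 3. Samples in doubt, left out together where stated, are these arrays and those whose tissue markers went against the label: C57 RCF 1, C57 NAc control 1 and 3, C57 mPFC control 3 and C57 mPFC RCF 1. Between 62.0% and 69.7% of probes were well above background on the C57 RCF arrays and between 68.9% and 76.4% on the DBA RCF arrays.

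Markers of tissue set 3 of the 8 samples apart. The mean of 32 striatal projection neuron genes was 10.83 in C57 RCF 1 and 12.98, 13.27 and 13.38 in C57 RCF 2 to 4. It was 13.15 and 13.13 in DBA RCF 1 and 2, 11.33 in DBA RCF 3 and 13 in DBA RCF 4. The mean of 20 cortical excitatory neuron genes was 11.04 in C57 RCF 1, between 9.59 and 9.76 in the other C57 samples, and 9.55, 9.98, 9.17 and 10.57 in DBA RCF 1 to 4. C57 RCF 1 thus held the lowest striatal and the highest cortical mean of the 8. The dopamine receptor Drd1 was at 8.63 there and at 11.85 to 12.30 in the other C57 samples, while the vesicular glutamate transporter Slc17a7 was at 11.87 against 5.85 to 6.86. DBA RCF 3 had the lowest striatal mean of its group together with the highest septal and pallidal mean (10.54) and the highest oligodendrocyte mean (12.45), and DBA RCF 4 had the highest cortical mean of its group. In bulk tissue, fewer cells of a type and less RNA per cell cannot be told apart.

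**Figure D1:**
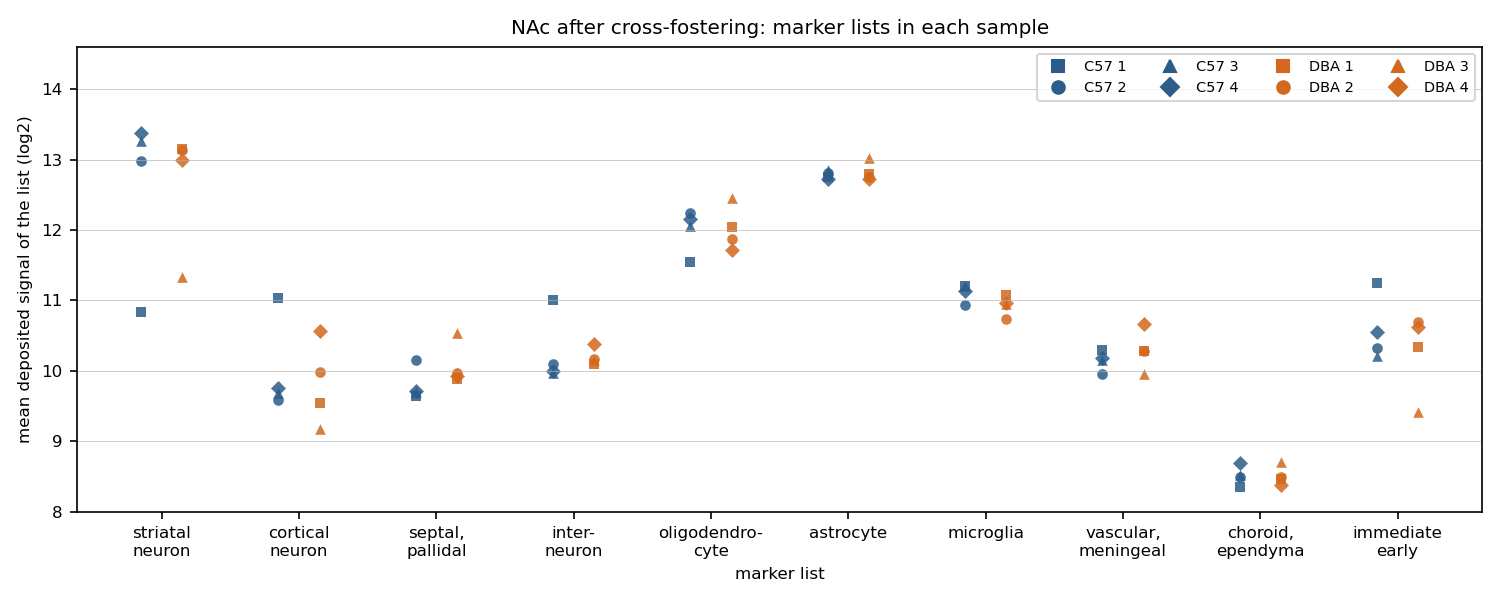
Mean log2 signal of each marker list (vertical axis) in each of the 8 cross-fostered NAc samples (blue, C57; orange, DBA; the symbol gives the sample number). C57 RCF 1 lies apart at 10.83 for striatal and 11.04 for cortical genes, and DBA RCF 3 lies low at 11.33 for striatal genes.

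DBA and C57 differed at 4187 of 25536 features, 16.4% of those tested. In DBA, 1261 were higher (4.94%, median difference 0.61) and 2926 lower (11.5%, median difference -0.82). Of these, 1237 differed by more than 1 on the log2 scale. The median over all features was -0.02. With quantile normalization the count was 4147, of which 1789 (43.1%) were higher in DBA, against 30.1% on the deposited scale, and 3491 features passed in the same direction under both. With normexp and quantile normalization 40.9% of 4100 were higher. Over all features, the 4 values of one strain lay wholly above the 4 of the other for 19.3%, and for 86.6% of those that passed the test.

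Without C57 RCF 1, 3548 features passed (13.9%), 961 higher and 2587 lower, and 3320 of the 4187 passed in both. All 4187 kept their sign. Without C57 RCF 1, DBA RCF 3 and DBA RCF 4 together, 1371 passed, 1346 of them among the 4187. Among 13769 named genes (symbols that are no predicted or clone names), 737 were higher (5.35%) and 1001 lower (7.27%) in DBA, 12.6% in all, and the median difference was 0.02.

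The named genes below are the 15 with the largest differences each way among 1224 genes that passed with and without C57 RCF 1 and whose strains did not overlap. The promoter sequences of 4 of them are shown because they are the first genes each way, in order of difference, that passed in the same direction in the cross-fostered NAc, the control NAc and the cross-fostered mPFC and that have a single entry in the RefSeq promoter table (GRCm38.p6). Each run gives the 250 bases before the annotated start on the gene's own strand, upstream of the transcript and so outside its exons. The reference genome is that of C57BL/6J, and the DBA sequence was not used here.
Rbbp9: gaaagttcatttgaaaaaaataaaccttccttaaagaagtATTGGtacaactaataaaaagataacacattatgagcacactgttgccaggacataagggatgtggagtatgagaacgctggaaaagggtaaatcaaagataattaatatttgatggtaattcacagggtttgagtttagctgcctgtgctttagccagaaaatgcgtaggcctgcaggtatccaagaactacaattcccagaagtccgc
Acyp2: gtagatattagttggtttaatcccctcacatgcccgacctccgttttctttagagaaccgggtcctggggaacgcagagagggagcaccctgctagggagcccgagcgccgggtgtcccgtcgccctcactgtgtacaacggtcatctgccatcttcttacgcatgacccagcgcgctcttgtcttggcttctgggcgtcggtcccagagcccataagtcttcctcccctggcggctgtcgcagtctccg
Ocel1: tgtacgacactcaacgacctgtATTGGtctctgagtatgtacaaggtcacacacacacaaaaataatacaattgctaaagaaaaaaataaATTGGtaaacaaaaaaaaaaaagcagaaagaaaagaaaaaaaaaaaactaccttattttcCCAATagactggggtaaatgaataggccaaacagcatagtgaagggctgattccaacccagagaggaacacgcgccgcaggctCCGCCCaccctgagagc
Hddc3: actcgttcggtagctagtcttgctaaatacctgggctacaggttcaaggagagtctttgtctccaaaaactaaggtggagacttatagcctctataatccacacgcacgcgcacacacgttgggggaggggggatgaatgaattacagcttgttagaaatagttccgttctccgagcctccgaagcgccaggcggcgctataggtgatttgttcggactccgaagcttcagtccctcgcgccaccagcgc
Capitals mark the CCAAT box (CCAAT or ATTGG) and the GC box (GGGCGG or CCGCCC), which do not overlap each other here. The TATA box (TATAAA or TTTATA) was also searched, so each motif was read on both strands. These windows lie at chr2:144550860-144551109 (minus strand) for Rbbp9, chr11:30649397-30649646 (minus) for Acyp2, chr8:71371048-71371297 (plus) for Ocel1 and chr7:80342887-80343136 (plus) for Hddc3. The Ocel1 window held 3 CCAAT boxes and 1 GC box, the Rbbp9 window 1 CCAAT box, and the other windows held none of the motifs. Of all 32851 promoters of that length, 33.8% held a CCAAT box, 32.7% a GC box and 12.4% a TATA box.

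Rbbp9 had the largest difference of the genes lower in DBA. It encodes a serine hydrolase that binds the retinoblastoma protein, and its signal was 11.18, 11.21, 11.35 and 11.22 in C57 RCF 1 to 4 and 5.25, 5.22, 4.43 and 4.60 in DBA RCF 1 to 4. The strains were far apart, with a difference of -6.36 ± 1.15 (SE of the fit; adjusted p = 0.000537, limma). The SDs within the strains were 0.07 and 0.42. The larger SE comes from a model that pools the spread of all 8 groups of the series, in which DBA NAc control 4 stood at 11.09. Without the samples in doubt, the SE was 0.19 at a difference of -6.38.

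Acyp2, an acylphosphatase, read 11.33, 11.35, 11.73 and 11.63 in C57 and 5.73, 5.86, 5.76 and 5.16 in DBA. Its difference was -5.88 ± 0.91 (adjusted p = 0.000128, limma), with every DBA sample below every C57 sample. Cox17, the copper chaperone that supplies cytochrome c oxidase, read 7.84, 7.94, 8.29 and 7.99 in C57 and 5.14, 5.01, 4.90 and 4.59 in DBA. Its difference of -3.10 ± 0.15 was the smallest in error of the 15 (adjusted p = 5.1e-12, limma), and DBA NAc control 4, at 4.86, lay with the DBA samples for this gene. Fggy, a carbohydrate kinase, was at 4.17 to 4.62 in DBA and 7.93 to 8.42 in C57, a difference of -3.63. Car8, a carbonic anhydrase relative without the enzyme activity, differed by -3.07, and Gcnt1, which builds branched O-glycans, by -3.08.

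Gcnt1 was high in C57 RCF 1 (10.65, against 7.61 to 8.37 in the other C57 samples), and its difference fell to -2.39 without that sample. Lingo1, a neuronal membrane protein that signals with the Nogo receptor and restrains myelination, had a like pattern. It read 11.16, 9.04, 9.11 and 9.26 in C57 and 5.93, 6.75, 5.98 and 7.11 in DBA, a difference of -3.20 ± 0.44 with C57 RCF 1 and -2.70 ± 0.39 without it. The strains did not overlap with or without that sample. DBA NAc control 4, which went against its strain label, read 5.82 for Lingo1 and lay with the DBA samples, as for Cox17. Slc4a10, a neuronal bicarbonate transporter, was highest in C57 RCF 1 as well (12.42, against 11.56 to 11.70) and differed by -3.94, or -3.74 without it.

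The remaining genes lower in DBA had varied known roles. Pttg1, the securin that inhibits separase until sister chromatids part, read 13.81, 13.50, 13.66 and 13.62 in C57 and 9.75, 9.89 and 8.79 in DBA RCF 1, 2 and 4, with DBA RCF 3 the highest of its group (DBA mean 9.78 ± 0.78, SD, n = 4), a difference of -3.87 ± 0.67 (adjusted p = 0.000338, limma). Rec8, a cohesin subunit of meiosis, differed by -2.89, Myo7a, an unconventional myosin of sensory hair cells, by -3.90, and Col25a1, a membrane-bound collagen, by -3.14. Iqcf4, which carries IQ motifs, differed by -5.26, and Mcemp1, a membrane protein of mast cells, by -3.01. D4Ertd617e differed by -4.63. In all 15 the strains did not overlap, by the rule that chose them. With normexp background correction and quantile normalization, 6 of the 15 had differences over 1.5 times smaller: D4Ertd617e at -2.73, Myo7a at -2.37, Fggy at -1.90, Gcnt1 at -1.90, Car8 at -1.79 and Cox17 at -1.60. All 6 kept their calls.

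The neuropeptide gene Oxt (oxytocin) headed the genes higher in DBA and was the most variable of them. It read 6.14, 5.77, 5.35 and 6.19 in C57 and 10.82, 8.08, 14.44 and 8.43 in DBA. The DBA samples ranged over more than the gap between the strains, and the difference was 4.58 ± 1.40 (adjusted p = 0.0257, limma). Without DBA RCF 3, the sample with the highest Oxt signal and the highest septal and pallidal mean, it was 3.25 (adjusted p = 0.122, limma). Among control samples, DBA NAc control 1 had an Oxt signal of 16.05, with the vasopressin gene Avp at 13.49. Its striatal mean was 11.32 and its septal and pallidal mean 10.62. DBA NAc control 3 had Oxt at 12.62, Avp at 9.79, a striatal mean of 13.22 and a septal and pallidal mean of 9.92. In DBA NAc control 2 Oxt was at 9.14, with these means at 12.7 and 9.97. DBA NAc control 4, which went against its strain label, lay within the Oxt range of the C57 samples. Of the RCF samples, DBA RCF 1 had Oxt at 10.82 with the lowest septal and pallidal mean of its group (9.88). With the striatal minus the cortical mean of each sample as a covariate, the Oxt difference was 4.67 (adjusted p = 0.0185, limma). That covariate does not cover septal or other tissue, whose part in the Oxt difference was not tested.

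Sfi1, a centrosome protein that binds centrin, read 7.16, 7.74, 6.92 and 8.55 in C57 and 10.85, 10.74, 11.05 and 10.55 in DBA, a difference of 3.20 ± 0.64 (adjusted p = 0.00132, limma). Ocel1, named for an occludin-like domain, read 9.88, 9.59, 9.76 and 9.54 in C57 and 12.94, 12.74, 12.37 and 12.77 in DBA. Its difference was 3.01 ± 0.57 (adjusted p = 0.000849, limma), and each strain kept within a narrow range. Hddc3, a hydrolase of the HD domain family, read 8.04, 7.94, 8.23 and 8.00 in C57 and 10.52, 10.69, 10.94 and 10.06 in DBA, a difference of 2.50 ± 0.46.

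Serpina3n, a secreted inhibitor of serine proteases that reactive astrocytes express, was at 7.70, 7.04, 6.63 and 6.33 in C57 and at 8.69, 9.16, 10.12 and 8.68 in DBA. Its difference was 2.23 ± 0.49 (adjusted p = 0.00261, limma), and DBA RCF 3 was its highest sample. Map1b, a microtubule-associated protein of growing axons, differed by 2.22, Rnase4, a secreted ribonuclease, by 2.05, and Pi4k2b, a phosphatidylinositol kinase, by 1.83. Tnnt1, troponin T of slow muscle, differed by 1.95, and Wdfy1, an endosomal protein, by 1.94. Gprc5b, an orphan receptor, differed by 2.43, with C57 RCF 2 at 12.73 well above the other C57 samples at 10.57 to 10.82. Bricd5, Cuedc1, Prune2 and Zfp984 differed by 2.67, 2.39, 1.98 and 1.84.

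**Figure D2:**
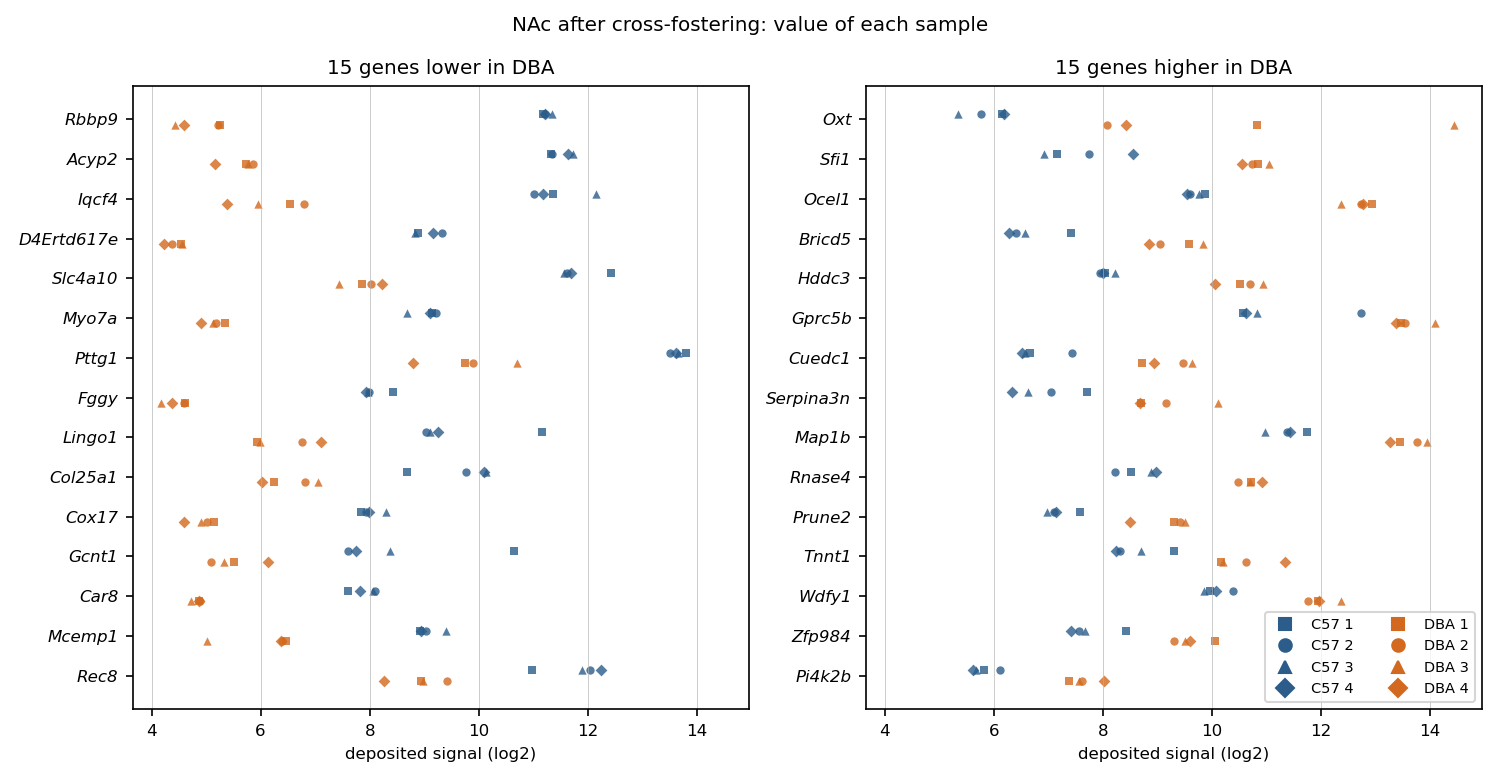
Log2 signal (horizontal axis) of the 30 genes with the largest strain differences in each of the 8 cross-fostered NAc samples (blue, C57; orange, DBA; the symbol gives the sample number). The strains are apart for each gene by the rule that chose them, and the widest spread within a strain is that of Oxt in DBA, from 8.08 to 14.44.

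Where a gene had more than 1 deposited probe, the probes often differed. Of the 30 genes, 23 had 1 probe and 7 had 2 or more. In 6 of these 7, another probe had the opposite sign. The second Rbbp9 probe read 7.46 ± 0.13 in C57 and 7.89 ± 0.29 in DBA (SD, n = 4), where the tested probe read 11.24 ± 0.07 and 4.88 ± 0.42. The second Prune2 probe was at 8.68 in C57 and 6.43 in DBA, a difference of -2.25 against 1.98 for the tested one. Of the 4 Wdfy1 probes, differences were 1.94, 1.61, -0.27 and -1.05. Among all 383 named genes with 2 or more probes that passed the test, every probe had the same sign in 70.0%, beside 59.5% of all 3655 named genes with 2 or more probes. For these genes the strain difference is therefore that of a probe, and the level of the whole gene was not measured.

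**Figure D3:**
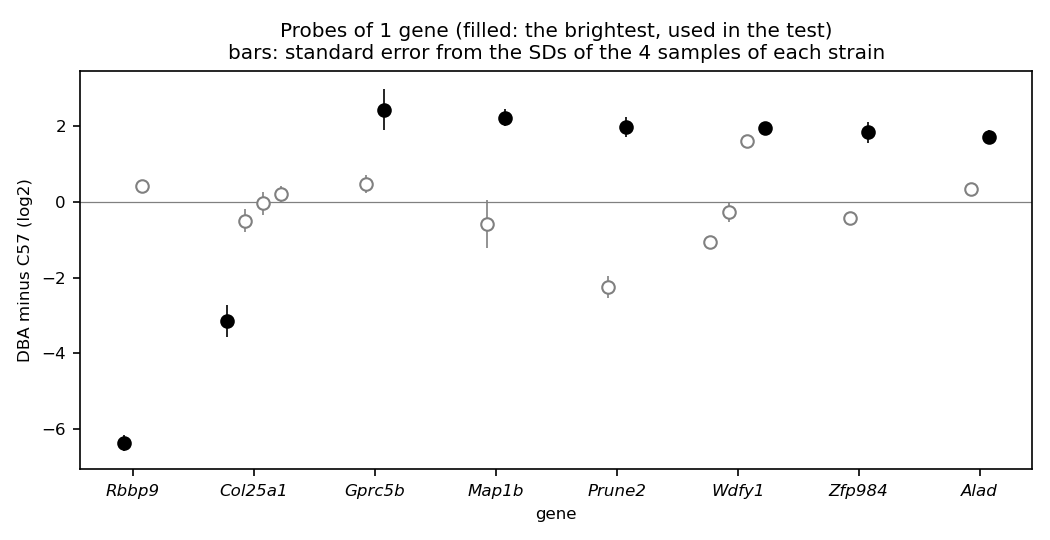
Strain difference (DBA minus C57, log2) of each deposited probe of the genes with more than 1 probe among the 30, and of Alad. Filled points are the brightest probes, which the test used; the Rbbp9 probes lie at -6.36 and 0.43 and the Prune2 probes at 1.98 and -2.25.

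Genes known to differ between these strains served as a check of the labels. Glo1, the glyoxalase that clears methylglyoxal, was at 12.72, 12.86, 12.72 and 12.60 in C57 and at 14.24, 13.77, 14.03 and 14.14 in DBA, a difference of 1.32 ± 0.23 (adjusted p = 0.000329, limma). Gabra2, a GABA-A receptor subunit with a known C57BL/6J variant, was at 11.37 to 11.73 in C57 and 12.38 to 13.01 in DBA, a difference of 1.17 ± 0.25, or 1.30 with its other probe. Alad, an enzyme of haem synthesis, was higher by 1.71, and its second probe differed by 0.35. Myo5a, the myosin behind the dilute coat of DBA, was lower (difference -0.61 ± 0.14). Gpnmb, a glycoprotein that DBA/2J carries in a truncated form, was above background on 3 of 4 C57 arrays and none of the DBA arrays. Kcnj9, a potassium channel subunit, differed by 0.96 with all samples (adjusted p = 0.0897, limma) and by 1.30 without C57 RCF 1 (adjusted p = 0.0215, limma). In all, 3 of 8 measured genes of this list were higher and 1 lower (median 0.71), where 5.35% of named genes were higher and 7.27% lower. All 8 samples kept to their strain for Glo1 and Gabra2, and Xist, expressed from the inactive X of females, was at 10.27 to 11.00.

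Of 25 measured genes of antigen presentation, 9 were higher in DBA and 1 lower (median 0.41), where 5.35% of named genes were higher. Without C57 RCF 1, 8 were higher and 1 lower. Without the 3 samples set apart by tissue markers none passed, with a median of 0.44. The class I gene H2-Q7 read 10.22, 10.05, 10.23 and 10.15 in C57 and 10.72, 11.24, 11.22 and 10.71 in DBA, a difference of 0.81 ± 0.19 (adjusted p = 0.00443, limma). H2-D1, H2-Q2 and H2-Q8 differed by 0.69, 0.59 and 0.65 with the same order of DBA samples, DBA RCF 2 and 3 above 1 and 4. Class I genes are near copies of each other and their probes may read 1 another, so the 4 values are not separate evidence. Tapbp, which loads peptides on class I, was higher by 0.50, and Psmb9, a subunit of the immunoproteasome, by 0.63. H2-Ob, a class II chaperone subunit, was lower (difference -1.14), whereas H2-K1 (-0.06, adjusted p = 0.859, limma) and B2m (0.11, adjusted p = 0.723, limma) did not pass. The class II gene H2-Aa, outside the deposited probe set, read 5.71, 3.18, 6.22 and 6.43 in C57 and 1.45, 3.82, 1.54 and 3.50 in DBA, with 3 and 1 arrays above background. As background, C57BL/6J and DBA2/J carry different major histocompatibility haplotypes.

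Genes of glutathione, peroxide and aldehyde clearance were higher for 8 of 42 measured and lower for 1, 21.4% in all beside 12.6% of named genes (5.35% higher), with a median of 0.18 against 0.02. Gstz1, a glutathione transferase of tyrosine breakdown, read 11.89, 12.09, 12.07 and 11.93 in C57 and 12.62, 12.52, 12.87 and 12.47 in DBA, a difference of 0.62 ± 0.14 (adjusted p = 0.00378, limma). Gstt2 was higher by 0.88, Gpx4, which reduces lipid peroxides, by 0.45, Prdx5 by 0.40, Hagh, which completes the glyoxalase pathway, by 0.35, Gpx1 by 0.32 and Gstp1 by 0.29, beside Glo1. Prdx6 was lower (difference -0.35), though another of its probes differed by 0.16. Gpx1 and Gstp1 did not pass without C57 RCF 1 (adjusted p = 0.0999 and 0.107, limma), and Mgst3 then did, at 1.26. Without that sample 7 were higher and 1 lower, and without the 3 samples set apart 2 were higher.

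Receptor and channel lists had between 4.44% and 13.8% of their members past the test, beside 12.6% of named genes. Of 22 GABA genes, 2 were higher and 1 lower. Gabrg3, a gamma subunit of the GABA-A receptor, read 7.64, 8.27, 8.19 and 8.22 in C57 and 9.43, 8.58, 8.71 and 8.87 in DBA, a difference of 0.82 ± 0.24 (adjusted p = 0.0231, limma), beside Gabra2. Of 24 glutamate receptor genes, 2 were lower and none higher. Gria2, the AMPA receptor subunit that limits calcium entry, differed by -0.98 ± 0.31 with overlapping strains, since DBA RCF 4 was at 11.47, and without C57 RCF 1 its adjusted p was 0.0644 (limma). The other Gria2 probe differed by -0.26 with all samples. Without C57 RCF 1 Gabra2 was the 1 GABA gene that passed, and no glutamate receptor gene did. Of 29 cannabinoid, serotonin and cholinergic genes, 1 was higher and 3 lower. The muscarinic receptor Chrm2 read 7.98, 7.97, 7.68 and 7.51 in C57 and 9.09, 9.29, 9.46 and 8.76 in DBA (difference 1.37 ± 0.32). The serotonin receptor Htr1f was lower (difference -1.69 ± 0.30), as were the nicotinic subunit Chrna4 (-1.61) and Cnr2 (-0.80). These genes and Chrm2 kept their calls without C57 RCF 1. Htr1f read 8.57, 8.09, 8.33 and 8.50 in C57 and 7.08, 6.33, 6.12 and 7.21 in DBA.

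Among voltage-gated channels, Cacna1e, the pore of R-type calcium channels, read 6.35, 6.75, 6.59 and 7.03 in C57 and 8.89, 8.41, 7.55 and 8.44 in DBA, a difference of 1.64 ± 0.34 (adjusted p = 0.00169, limma). Of 29 calcium and sodium channel genes, 1 was higher and 1 lower, and of 45 potassium channel genes, 1 each way. Kcnj10, the astrocyte potassium channel, was higher by 0.80, and Kcnip3 was lower (difference -0.60, and -0.09 with its other probe). Cacnb4, a calcium channel beta subunit, was lower (difference -0.60). These 3 lost the call without C57 RCF 1 (adjusted p = 0.0634, 0.118 and 0.111, limma). Without that sample 2 potassium channel genes were higher, Kcnj9 and Kcna2, a subunit of delayed rectifier channels (0.68, adjusted p = 0.0324, limma). The other Kcna2 probe differed by -0.08 with all samples.

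Dopamine genes largely did not pass. Of 18 measured, Caly, a partner of the D1 receptor, was the only one, at 14.45 to 14.86 in C57 and 15.02 to 15.36 in DBA (difference 0.51 ± 0.12, adjusted p = 0.00608, limma). Of 32 striatal projection neuron genes, Cd4, better known as a co-receptor of T cells, was the 1 that passed, at a difference of -0.77. The other Cd4 probe differed by -0.05. The list's median moved from 0.13 with all samples to -0.55 without C57 RCF 1 and to -0.03 without the 3 samples set apart, so its direction turned with the sample of cortical markers. Penk differed by 0.30 ± 0.92 with it and by -0.45 without it. Of 28 opioid and peptide genes 3 were higher and none lower, where 5.35% of named genes were higher. Pomc, the precursor of beta-endorphin, read 8.93, 9.23, 9.34 and 9.21 in C57 and 10.03, 10.12, 10.21 and 10.19 in DBA, a difference of 0.96 ± 0.14 (adjusted p = 8.1e-05, limma). Mc4r, the receptor for its melanocortin products, was higher by 0.81 and Tac2 by 0.65. Without C57 RCF 1 Mc4r had an adjusted p of 0.104 (limma).

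Genes of microglia and of the interferon response passed at 16.7% and 9.76%, beside 12.6% of named genes. Of 24 microglial genes, 4 were lower and none higher (median -0.02), where 7.27% of named genes were lower. Fcrls read 9.69, 9.25, 9.59 and 9.44 in C57 and 7.93, 7.90, 7.73 and 8.10 in DBA, a difference of -1.58 ± 0.34 (adjusted p = 0.00225, limma). C1qb and C1qc, chains of the complement component C1q, were lower as well (-0.94 and -1.07), and Trem2 differed by -0.32. Csf1r (-0.00 ± 0.12) and Itgam (-0.02), other microglial genes, did not pass. Without C57 RCF 1, 3 of the 24 were lower. Of 41 interferon-response genes, 1 was higher and 3 lower: Rsad2, the antiviral radical enzyme, was higher by 1.29, at 5.56 to 5.87 in C57 and 6.53 to 7.44 in DBA, while Xaf1 (-1.16), Iigp1 (-0.70) and Ifih1 (-0.71) were lower. Ifih1 did not pass without C57 RCF 1 (adjusted p = 0.205, limma).

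Few or none of the other lists' members passed, where 12.6% of named genes did (5.35% higher and 7.27% lower). Of 75 oxidative phosphorylation genes 4 were higher and 1 lower (median 0.15), with Ndufb8, a subunit of complex I, at 0.87 ± 0.21. Hdac1, a histone deacetylase, was the 1 of 38 chromatin genes that passed (difference -0.63). Pomc was the 1 of 19 stress genes. The immediate early genes had none of 23 past the test (median -0.37), with Egr1 at -0.75 ± 0.42 and adjusted p = 0.259 (limma), and their mean was 11.25 in C57 RCF 1 and 9.41 in DBA RCF 3, the extremes of the 8 samples. None of 11 choroid plexus and ependymal genes passed. Of 24 astrocyte genes 1 was higher. Of the oligodendrocyte (26), vascular (30), interneuron (17), cortical (20) and septal and pallidal (10) genes, 1 each passed: Ermn (-0.74), Rgs5 (1.03), Tac2, Camk4 (-1.30) and Tcf7l2 (-0.61). Another probe of Ermn, Camk4 and Tcf7l2 differed by 0.04, 0.06 and 0.57, of the opposite sign. Rgs5 was at 8.26 in C57 RCF 4 and at 10.53 to 10.62 in the other C57 samples, against 10.74 to 11.37 in DBA. Of the Xlr family, X-linked genes of which the series title names Xlr4, 3 were in the deposited probe set and none passed. Xlr4b differed by 1.70 ± 0.59 (adjusted p = 0.0502, limma), and by 1.44 without C57 RCF 1.

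**Figure D4:**
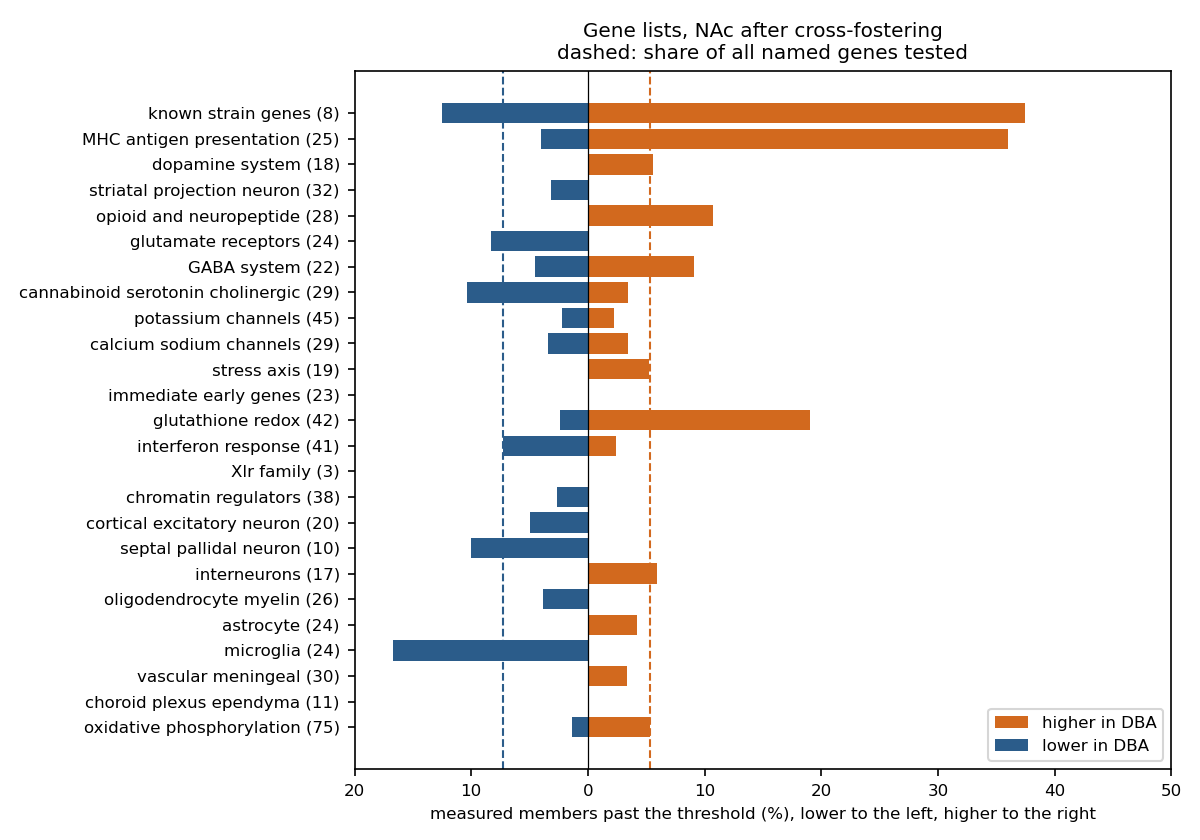
Share of the measured members of each gene list (number in brackets) that passed the test, higher in DBA to the right (orange) and lower to the left (blue), in percent. Dashed lines mark the shares of all named genes, 5.35% higher and 7.27% lower; the lists of known strain genes, antigen presentation and glutathione genes reach furthest to the right.

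The same strain comparison was available in other samples. In control NAc 4930 features passed (19.3%), and 5411 without the array labelled DBA control 4. It was 828 without the sample averaged from C57 control 1 and 3, which had cortical markers. In cross-fostered mPFC 8675 passed (34.0%). Within a region, control and RCF mice of a strain shared a slide, and slide equalled strain in the mPFC as in the NAc. All comparisons came from 1 model with a shared error. Of the 4187 features, 2346 also passed in the same direction in control NAc, 56.0% of the one list and 47.6% of the other, and none passed in the opposite direction. Without DBA control 4, 2717 did, 64.9% and 50.2%, and without the samples in doubt 1632 of 2025, 39.0% and 80.6%. In that last fit the C57 control NAc group was 1 sample, averaged from C57 control 2 and 4, whose spread is taken from the remaining groups. In the mPFC 1809 passed in the same direction, 43.2% and 20.9%, and 563 in the opposite direction. Counting all 3, 979 features passed in 1 direction, 402 higher and 577 lower, with 418 named genes.

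Of the 15 genes lower in DBA, 12 also passed in the same direction in control NAc and 15 in mPFC; of the 15 higher, 9 and 12. Without DBA control 4, the counts in control NAc were 15 and 14. That array was put in doubt by these same genes, so the rise was built in and is no separate evidence. Rbbp9 differed by -4.34 with that array and by -5.87 ± 1.12 without it, and by -6.62 ± 1.25 in mPFC. Oxt differed by 6.56 ± 1.41 in control NAc without that array, and by 0.80 ± 1.51 in mPFC. Gprc5b differed by 1.20 in control NAc without that array and 1.07 in mPFC, where neither value passed (adjusted p = 0.232 and 0.186, limma).

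**Figure D5:**
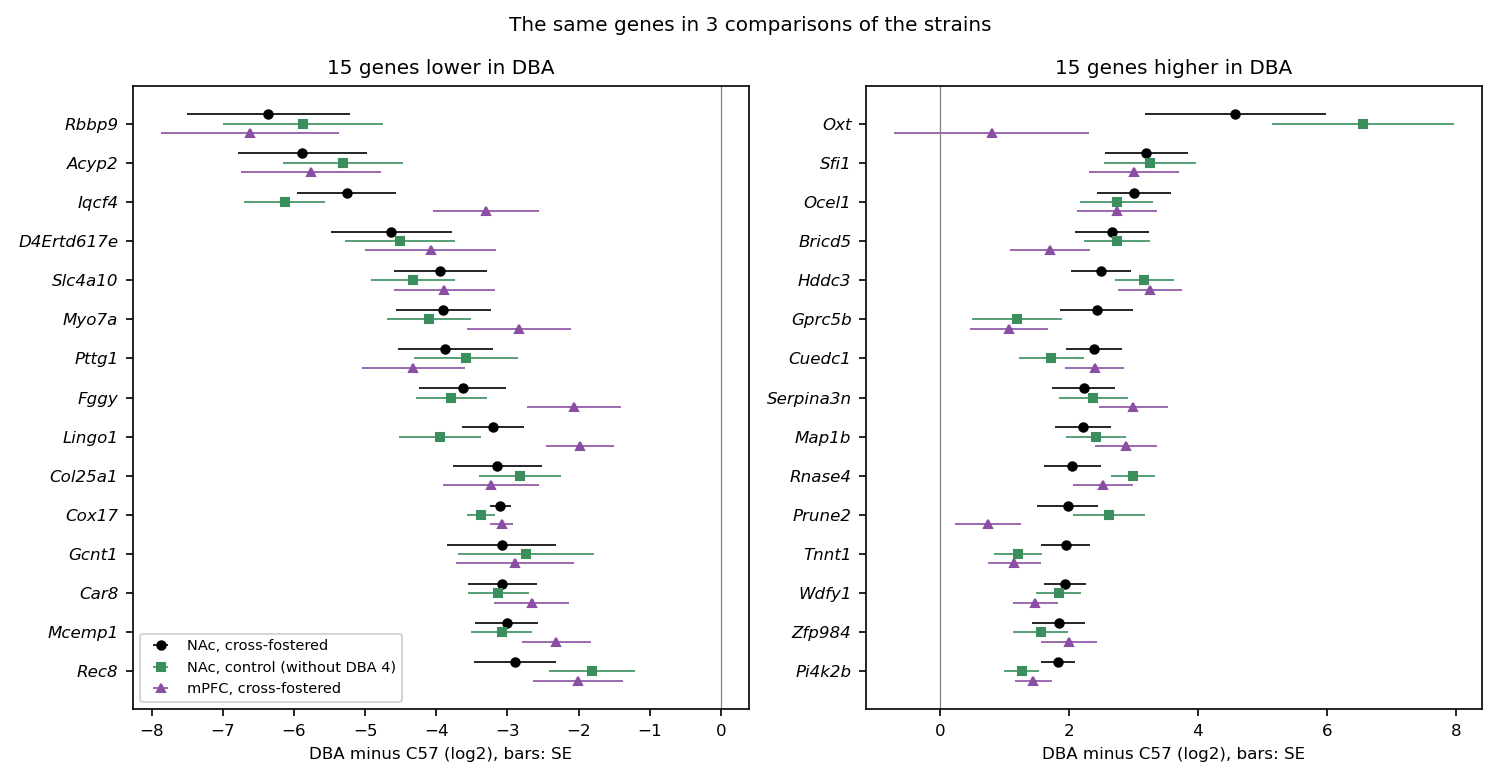
Strain difference (DBA minus C57, log2; bars, standard error of the fit) of the 30 genes in cross-fostered NAc (black), control NAc without the array labelled DBA control 4 (green) and cross-fostered mPFC (purple). Differences lie on 1 side of zero in each; Oxt in mPFC, at 0.80 with a standard error of 1.51, reaches zero within its error.

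Whether the strain difference itself depended on rearing was tested as the strain by treatment term in NAc. No feature passed (0 of 25536, limma), with 2061 at an unadjusted p under 0.05, of which 331 were among the 4187. The 331 made up about the same share of the 4187 as the 2061 did of the 25536. The lowest p among named genes that differed by strain was that of Cftr, a chloride channel, with a strain difference of -1.32 after RCF and -3.16 in control mice, a change of 1.84 ± 0.40 (adjusted p = 0.28, limma). Oas1d, Ahdc1, Pinx1 and Trpm1 followed, with changes of 1.59, 0.94, 1.21 and 1.54 (adjusted p = 0.369 for each, limma). For Ahdc1 the strain difference was 0.61 after RCF and -0.33 in control mice. Without the samples in doubt the Ahdc1 control difference was 0.05 (adjusted p = 0.919, limma). When the control sample averaged from C57 NAc control 2 and 4 was left out, 580 features passed, which left the C57 control group with 1 sample, averaged from arrays with a striatal mean of 10.65 and a cortical mean of about 11.0.

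Some genes were well above background in 1 strain only among the 8 arrays. On at least 3 of 4 arrays of a strain and none of the other, 1024 features were above background in DBA only and 94 in C57 only. Over all non-control probes, 15.1% of 37550 features passed the test; these members were chosen by detection on the same arrays, so the numbers that passed, 216 and 93, are a description and support nothing. The numbers found depended on single samples. Without DBA RCF 1, 2 or 3 there were 543, 442 and 576 in DBA only, and without C57 RCF 4 there were 1562. In C57 only there were 201 without DBA RCF 2, and 56 and 53 without C57 RCF 1 or 4. The numbers that passed moved as well, to 133 and 183 without DBA RCF 2, to 128 and 93 without DBA RCF 3, and for C57 only to 56 and 53 without C57 RCF 1 or 4. DBA arrays had more probes above background, which moves with this imbalance, and its part was not tested. A fold is a lower bound here, taken against the higher of the probe's own signal and the weakest signal called above background on each array of the other strain. The protease inhibitor Serpina3f was at 8.42, 8.43, 7.71 and 8.71 in DBA and at 1.79, 3.07, 3.58 and 3.57 in C57, at least 18.6-fold higher (adjusted p = 0.00071, limma). Its relative Serpina3i was at least 3.74-fold higher. Mbl2, a lectin that starts complement, was at least 13.6-fold higher in DBA, Slpi, another protease inhibitor, at least 7.41-fold, and Ifi202b, an interferon-induced DNA-binding protein, at least 4.66-fold. Tescl, Mael, Rufy4, Slc25a31 and Fam83g were also seen in DBA only, at least 17.5-, 8.55-, 7.49-, 4.69- and 4.65-fold higher. In cross-fostered mPFC each of these 10 genes was above background on all 4 DBA arrays, and on C57 arrays Fam83g was on 3, Serpina3f and Slpi on 2, Slc25a31 on none and the other 6 on 1. In control NAc each was above background on 3 or 4 of the 4 arrays labelled DBA. On C57 control NAc arrays Serpina3f and Mbl2 were on 1 and the others on none.

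Among the genes seen on C57 arrays of the 8, Tceanc2, which carries a domain of transcription elongation factors, was at 8.39, 8.38, 8.14 and 8.40, against 1.71, 3.05, 3.14 and 3.39 in DBA, at least 33.6-fold higher (adjusted p = 0.000493, limma). AA388235 was at least 28.8-fold higher in C57, and Mndal, a relative of Ifi202b in the interferon-induced Ifi200 family, at least 10.5-fold. Abhd3, a lipase, was at least 6.97-fold higher, Mgme1, a mitochondrial nuclease, at least 6.28-fold, and Bub1b, a spindle checkpoint kinase, at least 4.32-fold, on 3 of 4 arrays. Sgo2b, Adam24, Afm and Myl10 followed at 8.90, 5.46, 5.21 and 4.26. Other arrays labelled DBA had some of these genes above background. The DBA control NAc arrays counted here include DBA control 4, which went against its strain label, and the counts do not separate it. Tceanc2 was so on 2 of 4 DBA control NAc arrays and on 4 of 4 DBA mPFC RCF arrays. Mndal was so on 1 and 3 of these and Sgo2b on 1 and 3, Adam24 on 0 and 2, and Mgme1 and Bub1b on 1 and 1. AA388235, Abhd3 and Myl10 were on 1 DBA control NAc array and no DBA mPFC RCF array, and Afm was on none of either. All 20 passed without C57 RCF 1 as well, but passing on the 8 arrays was part of their choice, so this supports nothing. Among the 8 arrays Ifi202b was seen in DBA and Mndal in C57.

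Neighbouring genes were compared by the order of measured genes in RefSeq (GRCm38.p6), as a description with no test. The next gene along the chromosome was also higher in DBA for 8.09% of the genes higher in DBA, beside 5.32% of all genes with a symbol. For genes lower in DBA it was 12.6%, beside 7.82%. Within 3 measured genes either way, 7 of the 15 genes higher in DBA had a gene called higher, beside 37.2% of all genes higher in DBA and 26.4% of all genes with a symbol. Of the 15 lower, 8 had one called lower, beside 48.3% and 35.8%. As examples chosen after their values were seen, Alad lay next to Hdhd3, a phosphatase-like gene, which differed by 1.74 ± 0.35. Iqcf4 had its family member Iqcf1 (-1.02) beside it. Other neighbours went opposite ways: Gcnt1 (-3.08) lay next to Prune2 (1.98), and Zfp984 (1.84) next to Zfp933 (-2.75).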

How the data were processed

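RNA of 31 mouse samples was labelled with Cy3 and hybridised to 1-colour Agilent arrays, per the labels, with 200 ng per sample. The deposited scanner files give a background-subtracted intensity per spot, with marks for signal well above background, saturation and outliers (other), from Feature Extraction 10.7.3.1, per the file headers. The deposited series matrix holds log2 signals of 30067 probes, each column equal to 1 scanner file plus a constant. All columns share a 75th percentile of 11.4303. The rule by which the authors kept probes is not given in the sources used here, but 30060 of them, and no other probe, were well above background on all arrays. Arrays were given the sample of the matrix column they equal. Per-sample columns were all used.

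In 4 of 45 pairs of arrays of 1 group, differences were under 2 times the spread between repeated spots (0.584 to 1.74, against 2.97 to 11.2 in the others, a limit set after seeing the ratios). These were averaged, leaving 27 samples, and no pair lay in the 2 groups compared. A gene took its brightest deposited probe, which left 25536 features. Differences were tested with limma 3.58.1 (intensity trend, 8 group means) in R 4.3.3, adjusted over all features at 0.05. The test was checked on simulated data. Genes were named by the size rule given in the text, by 25 gene lists (members that passed, otherwise those with the highest signal), by the lower bound in 1 strain (10 each way) and by the smallest interaction p. Genes and lists were chosen with earlier results of these data known. The files lack the mean spot signal, so normexp used the median. The files name an older genome build, and no coordinates other than those of the promoter table are given. Alternatives covered normalization, background correction, probe choice, samples left out, a replicate block, weights and a tissue covariate. Some genes that the naming rule takes are not reported here. Python 3.11.15 and matplotlib 3.10.9 drew the figures. The number of arrays limits the precision.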

Additional observations from a re-analysis of the deposited data

Results flagged for a closer look

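Among 82 groups of 4 (30 genes and 11 marker means, per strain), 14 had a sample far from the other 3. Chance gives about 1 in 20 such groups, or 4.1. In C57 RCF 1, Slc4a10 was at 12.42, Fggy at 8.42 and Lingo1 at 11.16, above medians of 11.62, 7.96 and 9.11 in the other C57 samples. The same sample had the striatal mean at 10.83 (median of the others 13.27), the cortical mean at 11.04 (9.68), the interneuron mean at 11.01 (10) and the striatal minus cortical difference at -0.21 (3.59). In DBA RCF 3, the striatal mean was 11.33 (13.13), the septal and pallidal mean 10.54 (9.93), Car8 4.72 (4.86) and Mcemp1 5.02 (6.39). In C57 RCF 2, Gprc5b was at 12.73 (10.62), Cuedc1 at 7.44 (6.58) and the septal and pallidal mean at 10.16 (9.70).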

How the results depend on the processing

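Of 4187 features, the count was 2549 without dim features (fewer were tested), 1237 with a size above 1, and 1371 without C57 RCF 1, DBA RCF 3 and DBA RCF 4, an alternative chosen after seeing the data. It ranged from 3242 to 4029 with 1 of the 8 samples left out. With scanner files as listed for each sample it was 11295. Same-numbered samples correlated at -0.238 to -0.04, so the replicate numbers do not pair them, and the fit with the replicate block on the 2 groups gave 1483, against 2807 on the 2 groups without it. Control NAc gave 2025 without the samples in doubt, 9107 with every array its own sample, 1722 with only the 2 groups, 411 with files as listed, and 828 to 6394 with 1 sample left out (828 without C57 control 1 and 3). The mPFC gave 13559 with the wide probe set, 17038 with array weights, and 6250 to 8893 with 1 sample left out. The strain by treatment count was 1 with the wide probe set, 3 with quantile normalization, 9 with normexp, 5 with every array its own sample, 5 without the samples in doubt, 4053 with files as listed, and 0 to 580 with 1 sample left out. Genes seen in 1 strain gave 221 to 323, against 309.

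Over 32 single genes and 635 combinations with settings other than files as listed, 623 kept direction and call and 11 lost the call. Oxt lost it in 6, among them without C57 RCF 3 (adjusted p = 0.0628, limma), without DBA RCF 1 (0.0554) and without DBA RCF 3 (0.122). Prune2 turned to -0.14 with the mean of its probes. With files as listed, which mix the strains, these turned: Rbbp9 1.87, Acyp2 1.40, D4Ertd617e 1.00, Slc4a10 0.26, Myo7a 0.00, Pttg1 1.09, Col25a1 1.43, Car8 0.46, Rec8 0.91, Sfi1 -0.01, Ocel1 -1.25, Hddc3 -0.63, Cuedc1 -0.10, Serpina3n -1.47, Map1b -0.62, Rnase4 -0.17, Prune2 -1.16, Tnnt1 -0.48, Wdfy1 -0.11 and Zfp984 -0.50. The cause of the other changes was not tested. The DBA means of D4Ertd617e (4.42), Fggy (4.44), Car8 (4.83), Rbbp9 (4.88) and Cox17 (4.91) lay near the weakest signals called above background (2.90 to 4.70).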
